A study of Mus musculus with 12 samples.

Results

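The fatty acid elongases and desaturases are the liver enzymes that lengthen fatty acids by carbon pairs and that put double bonds into polyunsaturated ones. The genes described are 6 elongases (Elovl1, Elovl2, Elovl3, Elovl5, Elovl6 and Elovl7) and 3 desaturases (Fads1, Fads2 and Fads3), chosen by name, 9 of the 24983 genes counted. Liver RNA came from 12 mice of the strain C57BL/6J (C57BL/6 in the sample labels), 3 in each of 4 groups, with 1 library per mouse. The sources used here do not give sex or age. The chow group ate standard chow for 24 weeks, and no pump is mentioned for it. The other groups were fed for the same 24 weeks on a diet made to give nonalcoholic steatohepatitis (NASH, a fatty and inflamed liver), which holds saturated and trans fats, fructose and cholesterol and draws 40% of its calories from fat. All mice of these 3 groups carried an osmotic minipump, an implant under the skin that infuses slowly. It held the solvent polyethylene glycol alone (the vehicle group), oleic acid in that solvent (OA) or nitro-oleic acid in that solvent (OA-NO2, the same fatty acid with a nitro group added), each fatty acid at 5 mg/kg/day. Vehicle against chow therefore compares diet and pump together, which cannot be told apart, and OA-NO2 against OA compares compounds that differ by the nitro group at a matched infusion rate.

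Fatty acids made in the liver or taken from food are lengthened at the endoplasmic reticulum in a cycle whose first and slowest step, the condensation with malonyl-CoA, is carried out by the ELOVL proteins. ELOVL6 turns palmitate into stearate, ELOVL1, ELOVL3 and ELOVL7 make saturated and monounsaturated very long chains, and ELOVL5 and ELOVL2 act in turn on polyunsaturated chains on the way to arachidonic and docosahexaenoic acid. FADS2 opens that polyunsaturated route with its first desaturation and FADS1 follows after a round of elongation, while the substrate of FADS3 in liver is less settled.

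Depth ran from 8462590 counts (chow replicate 1) to 20613777, and the next lowest library held 15972613. Values are CPM, counts scaled to a common library total with the trimmed mean of M values (TMM). Genes are said to be called, to rise or to fall where edgeR's quasi-likelihood test over 14469 genes gave an adjusted p under 0.05. Scaled by library size only, all genes tested moved up against chow by a median of 0.51 (vehicle), 0.42 (OA) and 0.34 (OA-NO2) on the log2 scale, so differences here are relative to TMM. The 8 hepatocyte markers checked (Alb, Apoa1, Ttr, Hnf4a, Cps1, Serpina1c, Ass1 and Tat) were found in the libraries and summed to between 46741 and 153680 CPM. OA replicate 3 stood apart from the other OA livers. Its 8 recruited-macrophage markers summed to 58.1 CPM against 299 and 213, its 8 cholangiocyte markers to 41.5 against 405 and 230, and its hepatocyte markers to 93690 against 54949 and 60672. Its adipocyte markers (7 in the table) summed to 82.7 CPM against 10.3 and 19.4, of which the gene Cfd alone made up 81.2 against 9.53 and 18.5. Results that rest on it are given with and without it.

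On GRCm38, in the GENCODE M21 annotation, Elovl1 (ENSMUSG00000006390) lies on chromosome 4 at 118428093-118432953, Elovl6 (ENSMUSG00000041220) on chromosome 3 at 129532355-129638495 and Elovl5 (ENSMUSG00000032349) on chromosome 9 at 77917364-77984519. Chromosome 13 carries Elovl2 (ENSMUSG00000021364, 41182381-41220405, reverse strand) and Elovl7 (ENSMUSG00000021696, 108214404-108285683). Chromosome 19 carries Elovl3 (ENSMUSG00000038754, 46131897-46135694) and the desaturases, which sit next to each other: Fads3 (ENSMUSG00000024664, 10041569-10060110), Fads2 (ENSMUSG00000024665, 10062765-10101746, reverse strand) and Fads1 (ENSMUSG00000010663, 10182888-10196877). Exons of Elovl1 share 53 bases with Cdc20 on the opposite strand, those of Elovl3 share 10 bases with Pitx3 and those of Elovl6 share 34 bases with the antisense gene Gm35986. Whether strand was used in counting is not stated, but these neighbours held only 157, 68 and 234 counts over the 12 libraries.

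A RefSeq promoter entry (GRCm38.p6) was matched for 7 of the 9 genes. The 3 printed below belong to the members called between vehicle and chow that have an entry, and are shown so that the sequence upstream of these genes can be read. Each runs 5′ to 3′ from 250 to 41 bases before the start of the transcript. Capitals mark matches on either strand to 5 motifs picked after the promoters had been seen. They were CACCCCAC, which is a core of the sterol response element, the E-box with the letters CACGTG, the CCAAT box with the letters CCAAT, the GC box with the letters GGGCGG and the TATA box with the letters TATAAA. The matches printed do not overlap one another.
Elovl7, chr13:108214154-108214363, forward strand: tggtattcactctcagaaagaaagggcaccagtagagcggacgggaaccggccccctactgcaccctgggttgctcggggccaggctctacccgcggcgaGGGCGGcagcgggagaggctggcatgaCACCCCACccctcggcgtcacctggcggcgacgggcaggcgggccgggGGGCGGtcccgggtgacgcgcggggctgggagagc
Elovl2, chr13:41220444-41220653, reverse strand: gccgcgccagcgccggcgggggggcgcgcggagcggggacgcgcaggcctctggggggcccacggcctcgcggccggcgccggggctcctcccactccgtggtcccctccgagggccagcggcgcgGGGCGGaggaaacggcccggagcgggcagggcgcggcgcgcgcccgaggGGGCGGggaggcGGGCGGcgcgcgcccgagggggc
Elovl1, chr4:118427843-118428052, forward strand: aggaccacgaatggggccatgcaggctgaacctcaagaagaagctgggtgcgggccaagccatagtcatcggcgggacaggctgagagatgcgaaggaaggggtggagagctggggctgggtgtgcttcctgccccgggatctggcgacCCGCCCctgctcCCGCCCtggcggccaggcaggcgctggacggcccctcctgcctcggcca
Elovl7 held 1 sterol response core, 123 to 116 bases before its start, and 2 GC boxes, Elovl2 held 3 GC boxes and Elovl1 held 2. Elovl1 and Elovl2 each have a second RefSeq start, not printed, whose window held 1 GC box for Elovl1 and none of the 5 motifs for Elovl2. Over 27025 mouse promoter windows of the same length, the sterol response core occurred in 2.05%, the E-box in 4.68%, the CCAAT box in 30.4%, the GC box in 26.7% and the TATA box in 9.92%. Among the other windows, that of Elovl5 held 1 E-box and 1 CCAAT box, that of Fads2 held 1 GC box, that of Fads3 held 2 CCAAT boxes and 1 GC box, and that of Elovl6 held none of these letters. A match is a description of the letters only.

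The 9 genes spanned a wide range of levels. Per length, in RPKM (CPM per kilobase of exon), Elovl2 at 222 ± 48.4 and Elovl5 at 219 ± 68 were the highest elongases in chow (SD, n = 3), and Elovl3 followed at 62.2 ± 42.3. Elovl6 at 9.94 ± 0.709 and Elovl1 at 8.37 ± 1.37 RPKM were far lower, and Elovl7 stood at 0.0110 ± 0.00957. Fads2 at 125 ± 15.9 RPKM lay above Fads1 at 76.2 ± 2.72, and Fads3 stood at 1.30 ± 0.326. The polyunsaturated route held the 4 members of highest mean level per length in chow, Elovl2, Elovl5, Fads2 and Fads1.

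**Figure D1:**
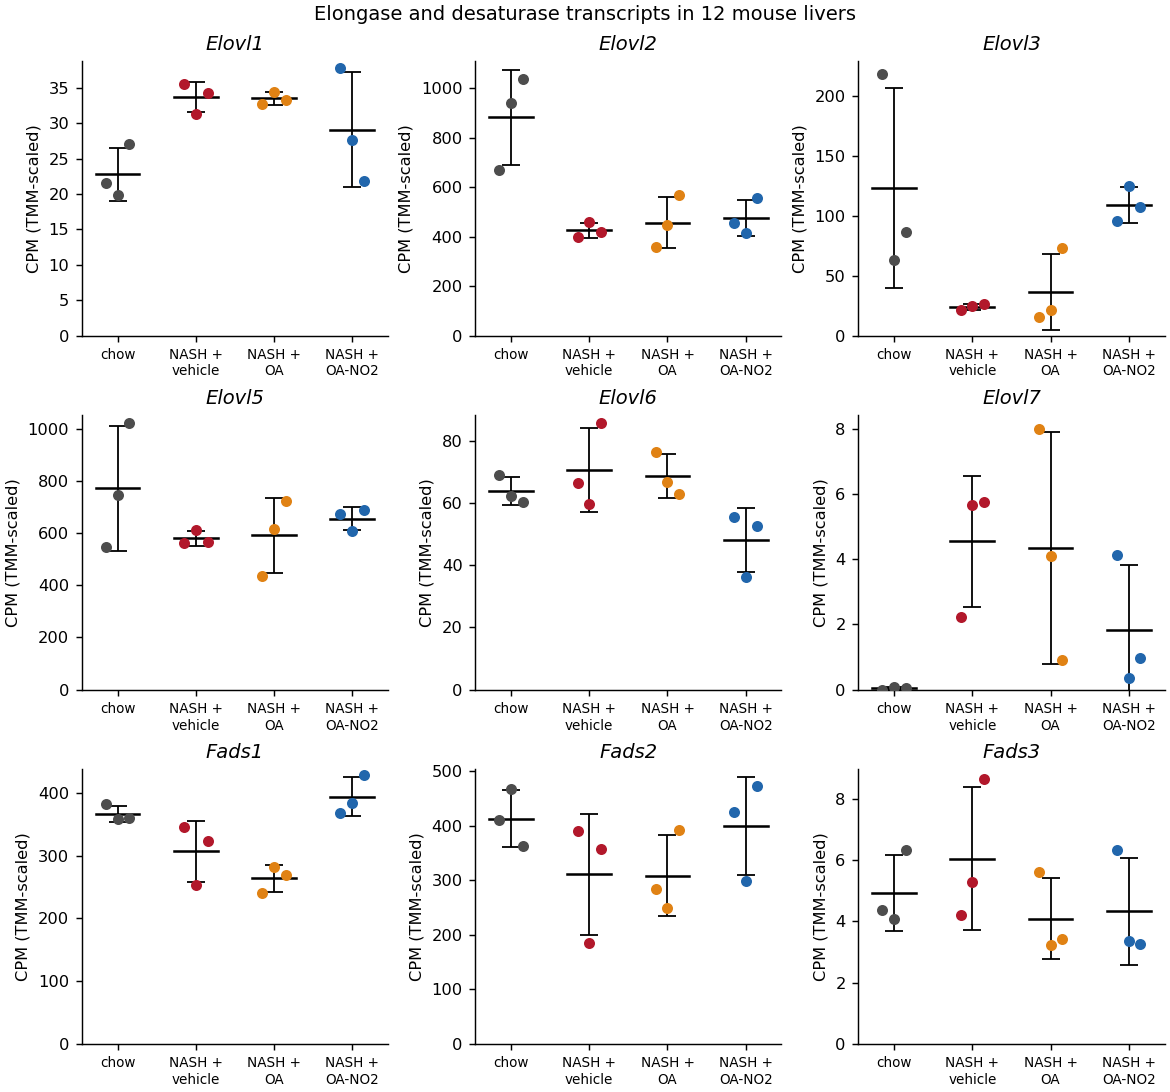
Level of each elongase and desaturase in CPM (TMM-scaled, linear axis from 0, 1 panel per gene) in chow, vehicle, OA and OA-NO2 livers. Points are the 3 mice of a group, the long line is their mean and the whiskers are 1 SD. Elovl2 lies lower in the 9 NASH-diet livers than in the 3 chow livers, Elovl7 has at most 1 count in any chow liver, and Elovl3 is between 95.2 and 124 with OA-NO2 against 21.2 to 26.3 with vehicle.

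The first question is how the set differed between vehicle-infused mice on the NASH diet and chow mice. In vehicle-infused mice on the diet Elovl2 and Elovl3 were lower than in chow, Elovl7 and Elovl1 were higher, and Elovl5, Elovl6 and the 3 desaturases did not pass the test. That is 4 of the 9 members called, where 19.3% of all genes tested were called. On the TMM scale groups did not overlap for 5 members, the 4 called ones and Fads1, against 39.4% of all genes. Elovl7 passed the filter on low counts only through the NASH-diet groups, so its call was in part fixed by that filter. The median log2 fold change was -0.26 over the 9 members and -0.01 over all genes tested.

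Elovl2, which lengthens the longest polyunsaturated chains, stood at 668, 941 and 1038 CPM in the chow livers and at 398, 460 and 418 CPM with vehicle. On the TMM scale every vehicle liver lay below every chow liver. By library total alone, chow replicate 1 (4284 of 8462590 counts) lay below vehicle replicate 2 (8628 of 15972613). The fall was 2.07-fold, -1.05 ± 0.21 (SE) on the log2 scale (edgeR adjusted p = 0.00678), and it was called under each of the 13 alternatives tried, from -1.22 to -0.54. The OA livers at 359, 446 and 567 CPM and the OA-NO2 livers at 455, 414 and 557 CPM were also all below chow. On the TMM scale chow was thus the highest group, and the 3 NASH-diet groups overlapped one another.

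Elovl3, which makes very long saturated and monounsaturated chains and is known in mouse liver for its daily rhythm, stood at 218, 63.4 and 86.6 CPM in chow and at 21.2, 24.6 and 26.3 with vehicle. Chow replicate 1, the library of lowest depth, was the high value, and the lowest chow liver still lay above the highest vehicle liver. The fall was 5.08-fold, a log2 fold change of -2.34 ± 0.53 (edgeR adjusted p = 0.0103), and was called in the 13 alternatives. Without chow replicate 1 the log2 fold change was -1.64 (edgeR adjusted p = 0.0475).

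Elovl7, an elongase of saturated very long chains, had 0, 1 and 1 counts in the chow livers, where a count of 0 allows up to 3. With vehicle it stood at 2.24, 5.65 and 5.75 CPM. The summed counts were 290 with vehicle and 2 in chow, a ratio of 82.9 with a 95% counting interval of 22.8 to 688 after allowing for the scaled totals (edgeR adjusted p = 0.00787). The call was lost with limma-voom (adjusted p = 0.0584) and was kept in the 12 other alternatives. It was thus a rise from near 0 to a level that remained low, at 1.13 ± 0.498 RPKM against 164 ± 8.23 RPKM for Elovl5 in the same livers.

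Elovl1, which supplies very long saturated chains to sphingolipids, stood at 21.5, 19.9 and 27.0 CPM in chow and 35.5, 31.3 and 34.3 with vehicle. The groups did not overlap. The rise was 1.48-fold, a log2 fold change of 0.56 ± 0.18 (edgeR adjusted p = 0.0484), and it lay at the threshold: the call was lost with limma-voom, without chow replicate 1 or 2 and without any one of the vehicle libraries (adjusted p up to 0.163).

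The remaining members overlapped or did not pass. Elovl5, the abundant elongase of shorter polyunsaturated chains, had a log2 fold change of -0.41 ± 0.23 on the TMM scale and 0.10 with library size alone (edgeR adjusted p = 0.223 and 0.736). Its chow values of 545, 747 and 1022 CPM enclosed the vehicle values of 561, 612 and 564. Elovl6, the palmitate elongase, stood at 69.1, 62.3 and 60.4 CPM in chow and 66.4, 59.7 and 85.8 with vehicle, a log2 fold change of 0.15 ± 0.18 (edgeR adjusted p = 0.597) that became 0.67 and was called with library size alone (adjusted p = 0.0216).

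None of the desaturases was called between vehicle and chow. Fads1, the desaturase that yields arachidonic acid, stood at 382, 358 and 360 CPM in chow and 346, 252 and 323 with vehicle. These groups did not overlap, yet the log2 fold change was only -0.26 ± 0.15 on the TMM scale (edgeR adjusted p = 0.261) and turned to 0.26 with library size alone. Fads2, which opens the polyunsaturated route, stood at 410, 467 and 362 CPM in chow and 391, 184 and 357 with vehicle, a log2 fold change of -0.41 ± 0.27 (edgeR adjusted p = 0.304) that turned to 0.10 with library size alone. Vehicle replicate 2 was the low library for both genes. Fads3 stood at 4.37, 4.06 and 6.34 CPM in chow and 4.19, 5.28 and 8.66 with vehicle, and overlapped (edgeR adjusted p = 0.592).

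**Figure D2:**
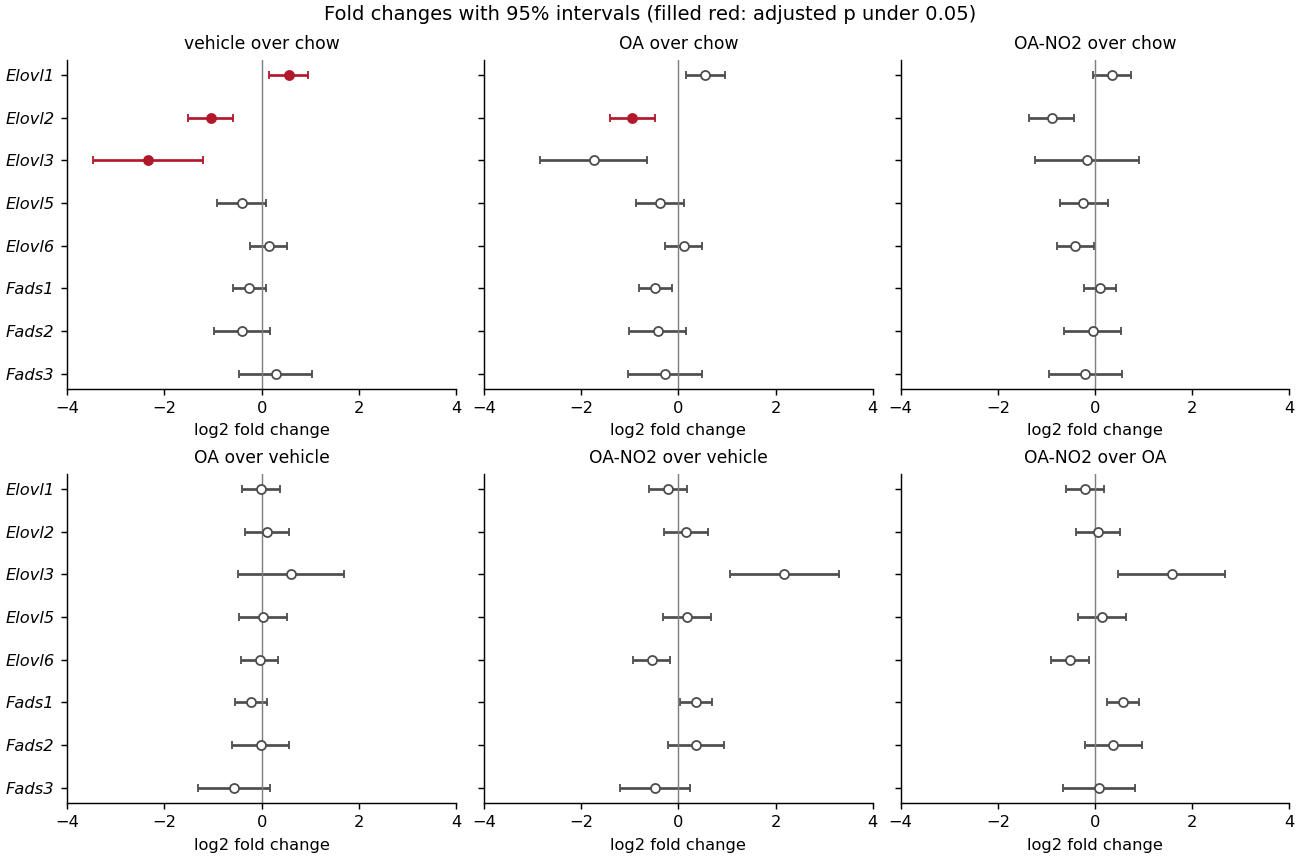
Log2 fold changes from edgeR with 95% intervals for 8 members (Elovl7, at 2 counts in chow, is left out) in the 6 comparisons of groups, 1 panel each. Filled red points have an adjusted p under 0.05. Elovl1, Elovl2 and Elovl3 are called in vehicle over chow and Elovl2 in OA over chow, and the intervals of Elovl3, Elovl6 and Fads1 leave 0 in OA-NO2 over vehicle without an adjusted p under 0.05.

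Because these genes act on shared substrates, their make-up was also described as shares of the summed reads per kilobase, which do not depend on the scaling between libraries. In chow the elongase transcripts were mostly Elovl2 (42.5% ± 5.18) and Elovl5 (41.3% ± 6.57), with Elovl3 at 12.7% ± 10.2 (24.4%, 6.45% and 7.13% in the 3 livers; SD, n = 3). With vehicle Elovl5 took 53.3% ± 0.942 and Elovl2 34.8% ± 0.855, Elovl3 was at 3.95% ± 0.367, and neither Elovl5, Elovl2 nor Elovl3 overlapped the chow group. Elovl1 went from 1.61% ± 0.141 to 4.03% ± 0.447 and Elovl6 from 1.95% ± 0.424 to 3.58% ± 0.750, again without overlap. A share can rise when others fall, so a gain in share is not by itself a rise in level. On the TMM scale the summed elongase level was 522 ± 83.9 RPKM in chow and 308 ± 15.2 with vehicle. Elovl1 was called higher on that scale, at its threshold as given above, and neither Elovl5 nor Elovl6 was called.

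The ratio of Elovl2 to Elovl5 put the change within the polyunsaturated route in 1 value per liver. It was 1.09, 1.12 and 0.902 in chow and 0.631, 0.667 and 0.658 with vehicle, and it stayed at 0.690 ± 0.0433 in OA livers and 0.643 ± 0.0670 in OA-NO2 livers. Every NASH-diet liver was below every chow liver. The desaturases kept their proportions: Fads2 made up 61.6% ± 3.27 of desaturase reads per kilobase in chow livers, and 57.9% ± 6.05, 62.1% ± 5.89 and 58.9% ± 5.18 in the vehicle, OA and OA-NO2 livers, and these groups overlapped. Of 72 mean shares recomputed with coding or longest-transcript lengths, 39 moved by more than 1 SD, but 103 of 108 statements on which groups overlap were the same.

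**Figure D3:**
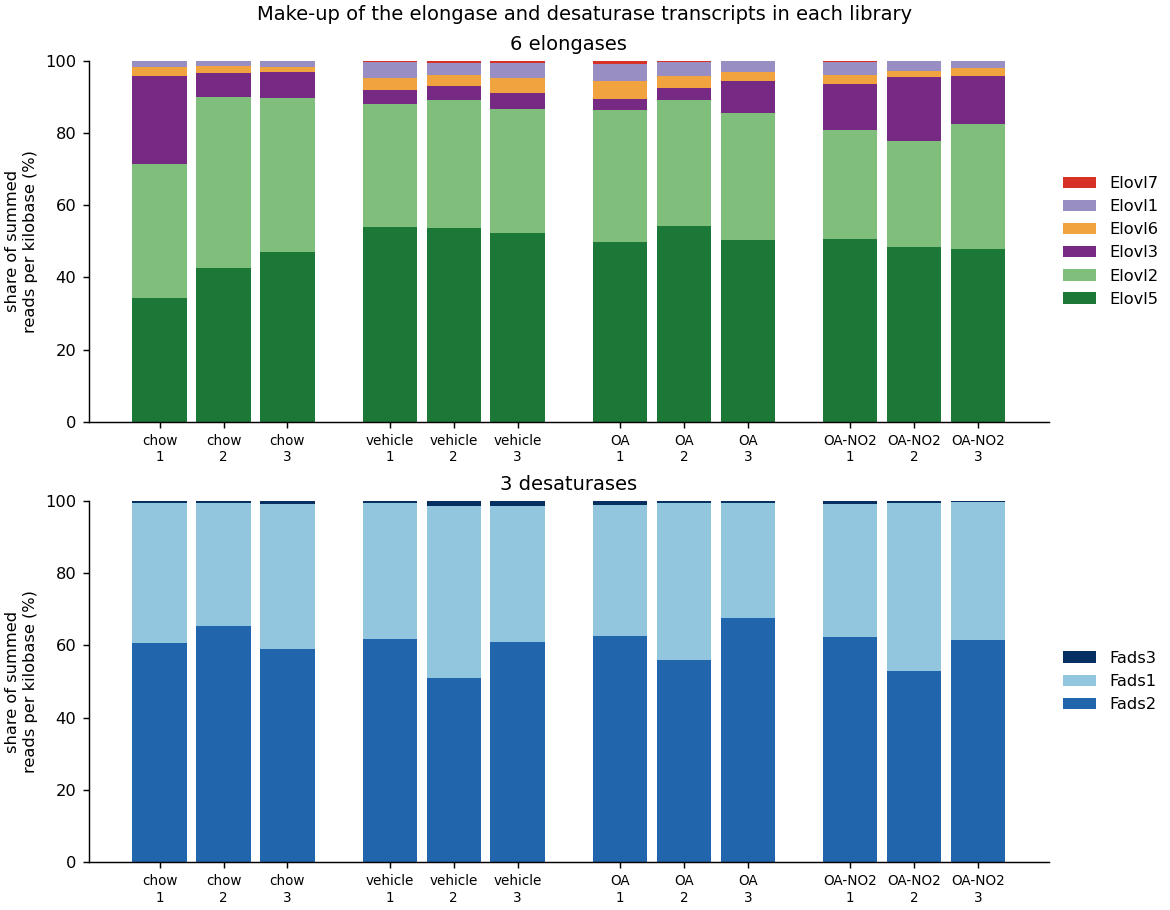
Share (%) of each elongase (top) and each desaturase (bottom) in the summed reads per kilobase of exon, 1 stacked bar per library, grouped as chow, vehicle, OA and OA-NO2. Elovl3 takes 24.4% in chow replicate 1, between 3.65% and 4.35% with vehicle, 9.05% in OA replicate 3 and between 12.8% and 17.7% with OA-NO2. Fads2 and Fads1 keep similar shares in the 4 groups.

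The next question is whether either infused fatty acid moved the set away from vehicle. With OA, 0 of the 9 members were called by edgeR, DESeq2 or limma-voom and 0 had an unadjusted p under 0.05, where 0.0% of all genes were called by edgeR and 564 had an unadjusted p under 0.05. None of the members' groups failed to overlap, against 13.1% of all genes. The log2 fold changes of OA over vehicle ran from -0.56 (Fads3, 95% interval -1.30 to 0.17) to 0.60 (Elovl3, -0.49 to 1.69). For Elovl2 the difference was 0.10 (-0.35 to 0.56) and for Fads2 it was -0.01 (-0.60 to 0.57). Elovl3 was 15.4 and 21.5 CPM in OA replicates 1 and 2 and 72.8 in replicate 3, and without replicate 3 its log2 fold change over vehicle was -0.41. Elovl7 was 8.0 and 4.10 CPM in replicates 1 and 2 and 0.903 in replicate 3.

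With OA-NO2, 0 of the 9 members were called in edgeR against vehicle, where 0.0207% of all genes were called. Elovl3, Elovl6 and Fads1, 3 of the 9, had an unadjusted p under 0.05, which 15.8% of all genes had, and the same members had groups that did not overlap, against 19.7% of all genes. DESeq2 called 1 member (Elovl3), where it called 300 genes in all (2.07%), and limma-voom called 0. Elovl3 stood at 95.2, 124 and 107 CPM with OA-NO2 against 21.2, 24.6 and 26.3 with vehicle. Every OA-NO2 liver lay well above every vehicle liver. Each also lay above chow replicates 2 and 3, at 63.4 and 86.6 CPM, and below chow replicate 1 alone, at 218, the library of lowest depth. The adipocyte marker sum was also higher, at 61.4, 126 and 61.1 CPM against 14.1, 32.9 and 16.4 with vehicle, nearly all of it Cfd. Slc2a4, the other adipocyte marker tested, went the other way, at 0.206, 0.104 and 0.0604 CPM against 0.746, 0.746 and 1.27 with vehicle. The log2 fold change of Elovl3 was 2.18 ± 0.52 (95% interval 1.06 to 3.30, edgeR adjusted p = 0.138). Elovl3 was called with no filter on low counts (adjusted p = 0.0234), with DESeq2 (0.0338) and with only the vehicle and OA-NO2 libraries in the fit (0.000652), over a range of 0.000652 to 0.448 in the 13 alternatives. Its share of elongase reads per kilobase was 14.6% ± 2.70 with OA-NO2 against 3.95% ± 0.367 with vehicle.

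On the TMM scale Elovl6 was lower with OA-NO2, at 55.5, 36.4 and 52.5 CPM, than in any vehicle liver (59.7 to 85.8) or chow liver (60.4 to 69.1). Over chow its log2 fold change was -0.41 ± 0.18 (edgeR adjusted p = 0.238), and -0.08 with library size alone. Its share of elongase reads per kilobase was 1.96% against 1.95% in chow, with overlap. Against vehicle the log2 fold change was -0.55 ± 0.18 (95% interval -0.94 to -0.17, edgeR adjusted p = 0.18), with an adjusted p from 0.0842 to 0.553 over the alternatives. Fads1 was 369, 384 and 428 CPM with OA-NO2, above every vehicle liver and around the chow values. Its log2 fold change over vehicle was 0.36 ± 0.15 (0.03 to 0.69, edgeR adjusted p = 0.282). Fads2 stood at 425, 299 and 472 CPM and overlapped vehicle (0.36, -0.22 to 0.94), as did Elovl1 at 37.8, 27.6 and 21.9 CPM and Elovl5 at 672, 606 and 687 CPM. Elovl7 stood at 4.12, 0.363 and 0.967 CPM, a log2 fold change of -1.31 (-2.91 to 0.29) that overlapped vehicle. Fads3 stood at 6.33, 3.37 and 3.26 CPM (log2 fold change -0.48, -1.21 to 0.25) and overlapped as well.

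OA-NO2 and OA, which differ by the nitro group, were compared directly at the same 5 mg/kg/day. In edgeR 0 of the 9 members were called, where 0.00691% of all genes were called. Elovl3, Elovl6 and Fads1 again had an unadjusted p under 0.05 and no overlap. Of all genes 12.0% had such a p and 14.3% had no overlap. DESeq2 called 1 member (Fads1) and 0.352% of all genes while limma-voom called 0 members. This comparison shares the OA-NO2 libraries with the one above and is not independent of it. For Elovl3 the log2 difference was 1.58 ± 0.51 (95% interval 0.48 to 2.68, edgeR adjusted p = 0.329), and it was 2.57 and called without OA replicate 3 (adjusted p = 0.0243). For Fads1, at 240, 282 and 269 CPM with OA, it was 0.58 ± 0.15 (0.24 to 0.91, edgeR adjusted p = 0.313; 0.0386 with DESeq2). For Elovl6, at 76.4, 66.7 and 63 CPM with OA, it was -0.51 ± 0.18 (-0.90 to -0.13, edgeR adjusted p = 0.348). For the other members the intervals held 0, and that of Elovl2 was -0.40 to 0.51 around 0.06.

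Against chow, the OA group had 2 of 9 members called, where 8.56% of all genes were. Elovl2 was lower (log2 fold change -0.95 ± 0.21, edgeR adjusted p = 0.0172) and Elovl7 higher, with 252 summed counts against 2, a ratio of 82.6 (22.6 to 686, edgeR adjusted p = 0.0132). As Elovl7 passed the filter on low counts only through the NASH-diet groups, its calls against chow were in part fixed by that filter. The Elovl2 call was lost with library size alone and the Elovl7 call with limma-voom. Either call could also be lost with 1 library left out, and between 0 and 3 members were called across those fits. Elovl3 at -1.74 ± 0.51 missed the threshold (edgeR adjusted p = 0.0523) and was -2.76 and called without OA replicate 3 (adjusted p = 0.0015). In OA-NO2 livers 0 of 9 members were called against chow, where 0.684% of all genes were. An unadjusted p under 0.05 was found for 3 members and for 18.8% of all genes. DESeq2 called 2 (Elovl2 and Elovl7) and 4.51% of all genes, and limma-voom called 0 members. Elovl2 was -0.89 ± 0.21 there (edgeR adjusted p = 0.0659), with no overlap between the groups on the TMM scale. Elovl7 had 103 summed counts against 2, a ratio of 34 (9.19 to 285, edgeR adjusted p = 0.108). Elovl3 was -0.16 (-1.24 to 0.91) on the TMM scale, 0.18 with library size alone and 0.54 without chow replicate 1. The comparisons with chow share the chow libraries.

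Summed levels of cell type markers also differed between the groups. Of 8 recruited-macrophage markers (Trem2, Gpnmb, Cd9, Itgax, Ccr2, Cx3cr1, Ly6c2 and Mmp12) 7 rose with vehicle over chow, and their summed level was 11.9 to 18.1 CPM in chow livers, 129 to 273 in vehicle livers, 58.1 to 299 under OA and 27.7 to 118 under OA-NO2. Of 8 stellate and fibroblast markers 7 rose, from 262 to 313 CPM in chow to 542 to 974 with vehicle, with 364 to 924 under OA and 311 to 492 under OA-NO2. Of 8 cholangiocyte markers (among them Krt19, Krt7, Epcam, Sox9, Cftr, Spp1 and Cldn4) 5 rose, from 35.9 to 49.3 CPM in chow to 83.5 to 503 with vehicle, with 41.5 to 405 under OA and 57.4 to 110 under OA-NO2. Elovl7 was high and low in much the same livers as the macrophage sum. In OA replicate 3 at 0.903 CPM and OA-NO2 replicate 2 at 0.363 it was low where the macrophage sums were 58.1 and 27.7. The stellate and fibroblast sums of these livers were 364 and 311. The cholangiocyte sum was also high and low in much the same livers as Elovl7, at 41.5 in OA replicate 3 and 57.4 in OA-NO2 replicate 2. The cholangiocyte sum of the first and the stellate sum of the second lay within the chow range, while Elovl7 was above every chow liver. How closely each sum ran with Elovl7 was not tested. Of 8 hepatocyte markers 5 fell with vehicle, from 124560 to 153680 CPM in chow to 46741 to 61309, and these sums were 54949 to 93690 in OA livers and 70772 to 104700 in OA-NO2 livers. Elovl2 and Elovl3 fell beside them, and the OA liver with the highest hepatocyte sum was the one with the highest Elovl3. Across groups that order did not hold: OA-NO2 replicate 1 had a hepatocyte sum of 70772 and 95.2 CPM of Elovl3, and OA replicate 3 had 93690 and 72.8. Among the NASH-diet livers the adipocyte sum was also high where Elovl3 was high, in OA replicate 3 and the 3 OA-NO2 livers, while in chow it was only 2.69 to 4.99 CPM beside high Elovl3. That sum was nearly all Cfd (adipsin), picked out after its values were seen. The defining adipocyte genes Adipoq, Plin1 and Lep were at or near 0 in the same livers, with Adipoq at 0.154, 0 and 0.0604 CPM under OA-NO2 and 0.0602 in OA replicate 3. They were highest in vehicle replicate 1, at 1.86, 0.699 and 0.373 CPM. Adig, a further marker of that list, was at 0.257, 0.414 and 1.63 CPM under OA-NO2 and 0.421 in OA replicate 3. With vehicle it was 0.233, 0.320 and 0.169 CPM, and in chow 0, 0 and 0.0640. Only 2 of the 7 adipocyte markers, Cfd and Slc2a4, passed the filter on low counts, and Slc2a4 was lower in every OA-NO2 liver than in any vehicle liver. No marker of these 4 lists was at 0 in every library, and 8 endothelial markers summed to between 145 and 235 CPM in chow and between 151 and 203 with vehicle. Kupffer cell markers were split, with 3 of 8 rising and 2 falling with vehicle over chow. They summed to 240 to 508 CPM in chow and 550 to 642 with vehicle. Red blood cell markers summed to 286 to 549 CPM in chow and 109 to 360 with vehicle. Lymphocyte and neutrophil markers stayed at or below 23.0 CPM in every library. The part of cell make-up in the members' differences was not tested, and in whole liver fewer cells of a type and less RNA per cell cannot be told apart.

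**Figure D4:**
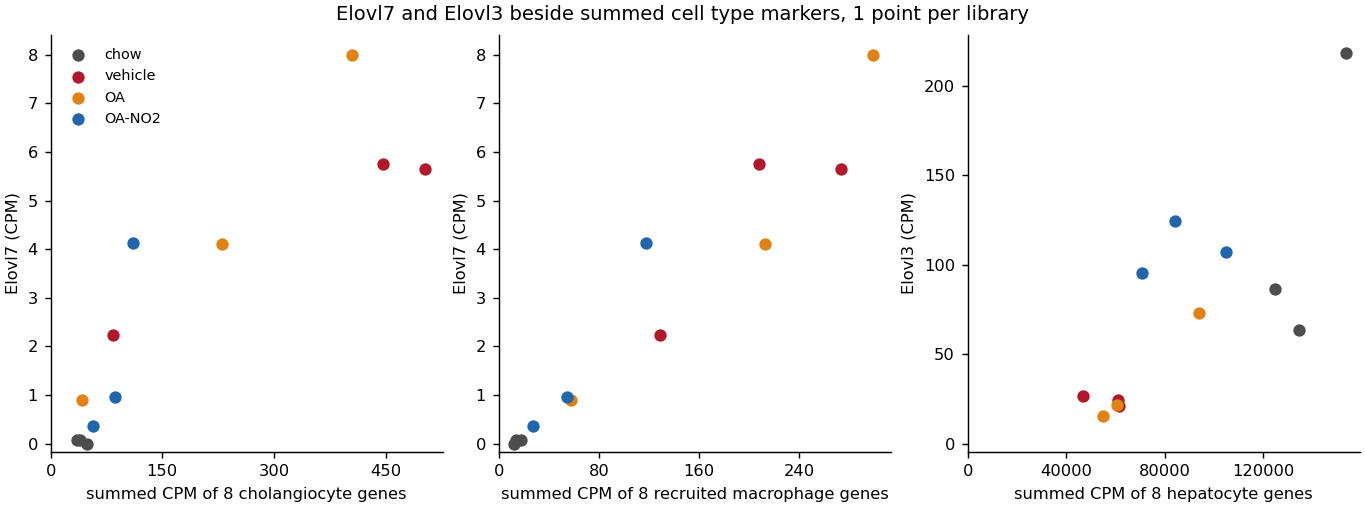
Elovl7 (CPM) against the summed CPM of 8 cholangiocyte and of 8 recruited-macrophage markers, and Elovl3 (CPM) against the summed CPM of 8 hepatocyte markers, on linear axes with 1 point per library coloured by group. Elovl7 is highest, at 8.0 CPM, in the liver whose macrophage sum is 299, and the 3 OA-NO2 livers have more Elovl3 than the vehicle livers and than OA replicates 1 and 2.

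The genes that work with the elongases and desaturases were described from 8 lists, 75 genes of which 65 were tested. Between vehicle and chow 6 rose and 10 fell, 24.6% of the genes tested against 19.3% of all genes, and the shares of the single lists below rest on few genes each. The balance of directions depended on the scaling: with library size alone 28 rose and 0 fell, where 39.8% of all genes were called. Among the 6 partners that complete the elongation cycle, Hacd4 (a dehydratase of the cycle) rose from 2.16 ± 1.16 to 5.61 ± 1.17 CPM (log2 fold change 1.29 ± 0.36, edgeR adjusted p = 0.0254) and Hacd3, the more abundant dehydratase, fell from 335 ± 19.1 to 230 ± 45.9 (-0.54 ± 0.18, edgeR adjusted p = 0.046). Tecr, the last reductase of the cycle, was at -0.65 ± 0.26 (edgeR adjusted p = 0.0909). Of the 4 other elongases and desaturases tested, Scd2, a stearoyl-CoA desaturase, rose from 4.91 ± 0.506 to 20.4 ± 4.39 CPM (2.04 ± 0.27, edgeR adjusted p = 0.00191). Scd1, the main such enzyme of liver, stood at 10476 ± 851 CPM in chow and 14144 ± 2343 with vehicle and did not pass (0.43 ± 0.21, edgeR adjusted p = 0.169), nor did Degs1 (-0.23). Of the 5 electron donors of desaturation 0 were called by edgeR, DESeq2 or limma-voom and 0 had an unadjusted p under 0.05, among them Cyb5a (-0.43), Cyb5r1 (0.65) and Cyb5r3 (0.09).

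Of 15 genes of fatty acid synthesis and its control 1 rose and 2 fell. Srebf1, the regulator of lipogenic genes, rose from 44.1 ± 6.73 to 120 ± 57.5 CPM (log2 fold change 1.44 ± 0.28, edgeR adjusted p = 0.00537), while Insig1, which holds the SREBP proteins back, fell by 1.17 on the log2 scale (edgeR adjusted p = 0.0159) and Acly, which makes cytosolic acetyl-CoA, fell by 0.65 (adjusted p = 0.0481). Of 12 acyl-CoA synthetases and thioesterases 0 rose and 4 fell: Acsl1 (-1.23), Slc27a5 (-1.08), Slc27a2 (-0.98) and Acsl5 (-0.61), which activate fatty acids or, for Slc27a5, bile acids. Of 9 genes of peroxisomal chain shortening 2 fell, among them the transporter Abcd3 (-0.89), and Scp2 at -0.61 did not pass (edgeR adjusted p = 0.056). Of 10 genes of phospholipid acyl remodelling 3 rose and 1 fell. Lpcat2 (1.45) and Lpcat1 (0.88), which reacylate lysophosphatidylcholine, rose, as did Mboat1, from 0.0963 ± 0.0518 to 0.977 ± 0.623 CPM, and Lpgat1 fell (-0.53). Mboat1 passed the filter on low counts only through the NASH-diet groups. Its call, counted above among the list genes that rose, was therefore in part fixed by that filter. The 4 ceramide synthases tested gave 0 calls in edgeR, DESeq2 and limma-voom, with 1 unadjusted p under 0.05, in Cers5 (0.66); Cers2 was at -0.21 and Cers4 at 0.30. Of the 16 calls, Scd2 and Srebf1 held in every alternative and 14 were lost in 1 or more of them.

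**Figure D5:**
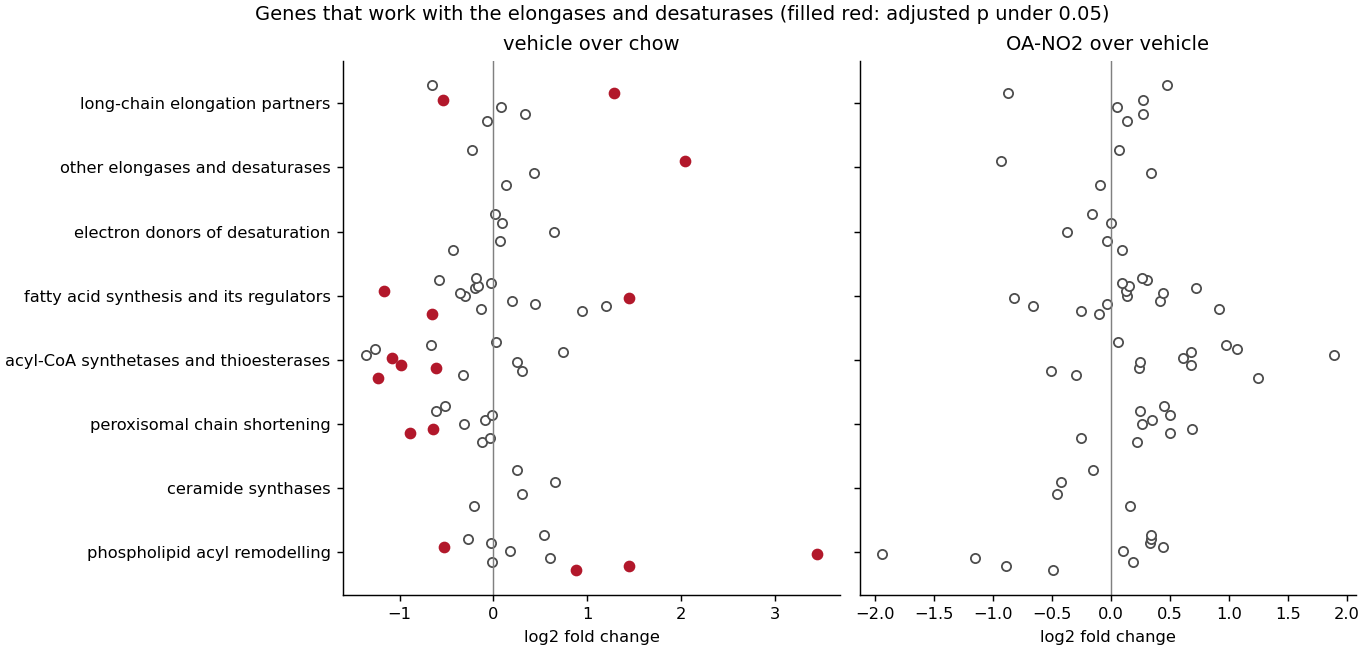
Log2 fold changes of the 65 tested genes of the 8 lists, 1 point per gene, for vehicle over chow (left) and OA-NO2 over vehicle (right). Filled red points have an edgeR adjusted p under 0.05. There are 16 such points on the left, 6 above 0 and 10 below, and 0 on the right.

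In the 3 comparisons between infusions 0 of the 65 genes were called by edgeR. Of the same genes, 1 had an unadjusted p under 0.05 between OA and vehicle, 18 did between OA-NO2 and vehicle and 17 did between the fatty acids, beside 3.9%, 15.8% and 12.0% of all genes. DESeq2 called 0, 3 and 0 of them, beside 0.0%, 2.07% and 0.352% of all genes, and limma-voom called 0 in each. For OA-NO2 over vehicle the medians of the 8 lists ran from a log2 fold change of -0.28 in the 4 ceramide synthases to 0.35 in the 9 peroxisomal genes and 0.64 in the 12 acyl-CoA synthetases and thioesterases, against 0.16 over the 65 genes and 0.02 over all genes tested. The 8 hepatocyte markers had a median of 0.60 in the same comparison. Acsl1 stood at 1901 ± 235 CPM with OA-NO2 against 798 ± 298 with vehicle (log2 fold change 1.25 ± 0.34, edgeR adjusted p = 0.162). Scd2 stood at 10.7 ± 2.00 against 20.4 ± 4.39 CPM (-0.93 ± 0.25, edgeR adjusted p = 0.159) and Srebf1 at 67.9 ± 17.3 against 120 ± 57.5 (-0.82 ± 0.27, edgeR adjusted p = 0.191).

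For each member the 3 genes of most similar profile were found by the root mean square difference of log2 CPM over the 12 libraries, each gene centred on its own mean. For Elovl7, whose own profile had a root mean square of 2.12, they were Ly6d (0.409), Col1a1 (0.439) and Ephb2 (0.527). For Elovl3, with a root mean square of 1.19, they were Meig1 (0.471), Cadm4 (0.503) and Susd4 (0.508), and for Elovl2 they were Rnf103 (0.178), Ppm1k (0.184) and Ttc39b (0.187). Elovl1 was nearest to Cln3 (0.110), Triobp and Gmppa, Elovl5 to Agtr1a (0.158), Wdr59 and Irf9, and Elovl6 to Calu (0.146), Mgat2 and Mtmr6. Fads1 was nearest to Shmt2 (0.121), Sphk2 and Eci1, Fads2 to Vwa8 (0.182), Dph1 and Acadvl, and Fads3 to Phldb3 (0.210), Cul7 and Atxn7l1. Within the set, Fads1 and Fads2 (0.276) and Elovl2 and Elovl5 (0.299) were the closest pairs. Flat profiles give small differences, so these values describe likeness and were not tested.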

How the data were processed

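Liver RNA from 12 mice was sequenced with the KAPA mRNA HyperPrep kit as paired reads of 76 bases, per the labels' protocols. Trimmomatic 0.35, HISAT2 2.1.0, SAMtools 1.2, HTSeq and the genome build GRCm38 are named in the submitters' processing notes. The sources used here do not give the annotation release, the strand setting or how multiply mapped reads were treated. The table the authors deposited holds raw whole-number counts for 24983 genes, and 0 columns were left unmapped. Ear tags in the labels tell the mice apart, so replicates are separate animals, and replicate numbers follow the order of deposit.

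Coordinates and lengths came from GENCODE M21. Symbols came from a reference list of gene names, or from GENCODE M21 where that list had no entry, and 24936 genes had a symbol. The filterByExpr function of edgeR 4.0.16 (minimum count 10, minimum total 15) kept 14469 genes, the 9 members among them. All 12 libraries entered 1 quasi-likelihood fit in R 4.3.3 with TMM scaling, and p-values were adjusted by Benjamini-Hochberg over all genes tested. Standard errors were approximated from the F statistic of each log2 fold change. RPKM and shares use the union of exons. The counting interval of Elovl7 is an exact interval at 95% and covers counting error only. The calculation was tested on simulated data. The alternatives were library size alone, DESeq2 size factors, no filter, a mean of at least 1 CPM, DESeq2 1.42.0, limma-voom (limma 3.58.1), a fit of the 2 groups compared, other gene lengths and each library left out in turn.

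The genes named are the 9 members, the 3 of lowest p between vehicle and chow in each of 8 lists, any list gene called between infusions (0 were), and the 3 of nearest profile to each member (predicted, clone-named and pseudogenes passed over). Acsl1 and Lpgat1 were added after their values were seen. Some listed genes that the rule or a marker list would name are not reported here. The members, gene lists and markers were chosen with earlier results of these data known. The listed genes Cers3 and Ucp1 (2 in all) were not in the table.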

Additional observations from a re-analysis of the deposited data

How the results depend on the processing

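Of 78 counts of called members recomputed under the alternatives, 62 stayed within 1.5 times, but 44 of these were counts of 0 that stayed 0, and 18 of the 26 counts above 0 did so. For vehicle over chow limma-voom called 2 of the 9 members against 4, and leaving out 1 library called 3 to 4. Of all genes, limma-voom called 15.6% against 19.3%, and leaving out 1 library called 8.12% to 15.4%. For OA-NO2 over vehicle 1 member (Elovl3) was called with no filter, 1 with DESeq2 and 1 with only the 2 groups in the fit, against 0, while the genes called in all went from 3 to 151, 300 and 62. For OA-NO2 over OA DESeq2 called 1 (Fads1), and leaving out 1 library gave 0 to 1, the 1 being Elovl3 without OA replicate 3. These 2 fits called 0.352% and 0.875% of all genes, against 0.00691%. For OA over chow DESeq2 called 4 and the fit of 2 groups 1, against 2, library size alone called 3 but not Elovl2, and limma-voom called 2 but not Elovl7. In the same order these fits called 13.0%, 5.8%, 26.1% and 5.31% of all genes, against 8.56%. Leaving out 1 library there gave 0 to 3: 0 without chow replicate 2 or OA replicate 1, 1 without chow replicate 1 or 3 or OA replicate 2, and 3 without OA replicate 3. For OA-NO2 over chow library size alone called 1, no filter 1 and DESeq2 2, against 0. Of all genes they called 7.79%, 1.05% and 4.51%, against 0.684%. For OA over vehicle the count was 0 in all 13 alternatives. The causes of these shifts were not tested. Where a library was left out, its group held 2 mice and the spread was estimated over all groups. No paired analysis was possible because the labels give ear tags and no shared replicate numbers. Depth limits Elovl7, at 2 counts over the 3 chow libraries, and Fads3, at 4.92 CPM in chow.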
